A study of Homo sapiens with 6 samples.

Results

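The 38 genes described here encode the subunits of the hypoxia-inducible factors (HIF), the oxygen sensors that control them, a set of hypoxia-induced HIF target genes, and the transporters and enzymes that carry glucose to lactate. They were chosen by gene name from the 58735 entries of the count table, and carbonic anhydrases were left out. The study measured polyadenylated RNA by sequencing in MDA-MB-231 cells, an established human triple-negative breast cancer line with a mesenchymal appearance and a high glycolytic rate. Cells grown in DMEM-F12 medium with serum and glutamine spent 72 h in vehicle, DMSO (libraries a, b and c) or in 2 µM Azeliragon (libraries a, b and c), a small-molecule antagonist of RAGE, which is the cell-surface receptor that binds advanced glycation end products. The comparison asks which transcripts differ between cells in Azeliragon and cells in vehicle, and does not by itself show that the receptor was blocked. The measurements come from 1 cell line at 1 dose and 1 time. The labels name neither the oxygen level in culture nor whether replicate libraries were grown as separate cultures, so p-values cover the spread between these libraries and no more, and that spread may be technical. Every ± below is the SD over the 3 libraries of a condition.

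HIF is a transcription factor made of an oxygen-regulated alpha subunit (HIF1A or EPAS1, the latter also called HIF-2 alpha) and the stable partner ARNT. In oxygen, prolyl hydroxylases of the EGLN family mark the alpha subunit for destruction, so HIF activity is set mainly at the protein and is not read from HIF1A RNA. In low oxygen the dimer binds short DNA elements with the core ACGTG or GCGTG and raises genes for glucose uptake, glycolysis, lactate export, mitophagy and angiogenesis. Many cancer cells keep high glycolysis in oxygen as well, converting pyruvate to lactate through lactate dehydrogenase A and exporting it through the transporter MCT4.

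Library totals ran from 41455979 to 44313584 counts, and each member had at least 51 counts in each library. DMSO a lay between the other vehicle libraries and the treated ones: its score on the leading principal component (37.6% of the variance) was -0.23, against 30.1 for DMSO b, 33.7 for DMSO c and -23.0 to -19.0 with the drug. Results are therefore also given without it. DMSO a was singled out by this score in these same data, as the vehicle library nearest the treated ones on that component. Leaving it out thus favours more calls and smaller p-values. The labelled line was checked against its markers. All 6 markers of a mesenchymal breast cancer line were expressed (74789 to 94456 counts of VIM and 24786 to 26664 of CD44 per library). CPM is the count scaled to a common library size after TMM normalisation. Of these 6 markers S100A4 fell 2.03-fold, from 918 ± 133 to 451 ± 5.6 CPM, and AXL rose from 1403 ± 87 to 1677 ± 27 CPM (edgeR adjusted p = 4.38e-05 and 0.0297), and 4 did not pass. In contrast, PGR had 0 counts, CDH1 at most 1 and ESR1 at most 14. ERBB2 (at least 4477 counts) and GATA3 (at least 908) were present at the RNA level. Among 7 markers of blood, endothelium and fibroblasts, CD3E had 0 counts and PTPRC at most 3, and the summed level was 17.6 to 20.3 CPM in DMSO and 10.9 to 12.3 CPM with Azeliragon. Of these other markers COL1A1 fell from 8.13 ± 0.28 to 4.77 ± 0.54 CPM and PDGFRB from 9.85 ± 1.3 to 5.87 ± 0.37 (edgeR adjusted p = 0.00306 and 0.00386), and the part of these markers, S100A4 and AXL included, in the results below was not tested. In bulk RNA, a lower share of cells that express a gene and less of its RNA per cell cannot be told apart.

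Few of these genes were called different with Azeliragon, and most of those called were lower. A gene that was not called is not thereby shown to be unchanged. All 38 genes passed the filter on low counts. With all 6 libraries 1 gene rose (HK1) and 5 fell (EGLN3, DDIT4, SLC16A3, PKM and LDHA), while 32 did not pass the threshold, an adjusted p under 0.05 in edgeR's quasi-likelihood test with Benjamini-Hochberg adjustment over 16081 genes. Across all genes tested 2.75% were called higher and 3.53% lower. The share of the 38 genes that fell was above the latter, and the share that rose was close to the former. No set test was run. Calls were more frequent among abundant genes, to which many of the 38 belong. Of the 19 members with a mean of at least 100 CPM, 1 rose and 4 fell, where 6.18% of all 2202 genes at that level were called higher and 5.4% lower.

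Fold changes were small. The absolute log2 fold change was under 0.2, a 1.15-fold difference, in 29 of the 38 genes and above 0.5 in 2 of them, EGLN3 and DDIT4. The median log2 fold change was -0.08 over the 38 genes and -0.0040 over all genes tested. By role, the median was -0.03 for the 6 HIF subunits and oxygen sensors, -0.14 for the 8 HIF targets outside glycolysis, -0.18 for the 7 genes of transport and flux control, and -0.07 for the 17 glycolytic enzymes. In 14 genes all 3 Azeliragon libraries lay below all 3 DMSO libraries and in 2 they lay above, against 13.2% and 12.1% of all genes tested.

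The number called depended on library DMSO a. Without it 4 genes rose and 12 fell, where 12.9% and 10.8% of all genes did. The 6 genes called with all libraries were again called, and 10 others were added (EGLN1, HK2 and PFKM higher; BNIP3, SLC2A1, PDK1, PFKL, TPI1, PGK1 and ENO1 lower). Leaving out this library favours such calls, and none of these 10 was called with any other single library left out. The spread between libraries was larger in DMSO, with a median CV over the 38 genes of 5.85% against 3.18% with Azeliragon, and 30 of 38 genes had the larger CV in DMSO. This was not particular to these genes. Over all genes tested, the common biological CV in edgeR was 12.5% in DMSO and 5.64% with Azeliragon.

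**Figure D1:**
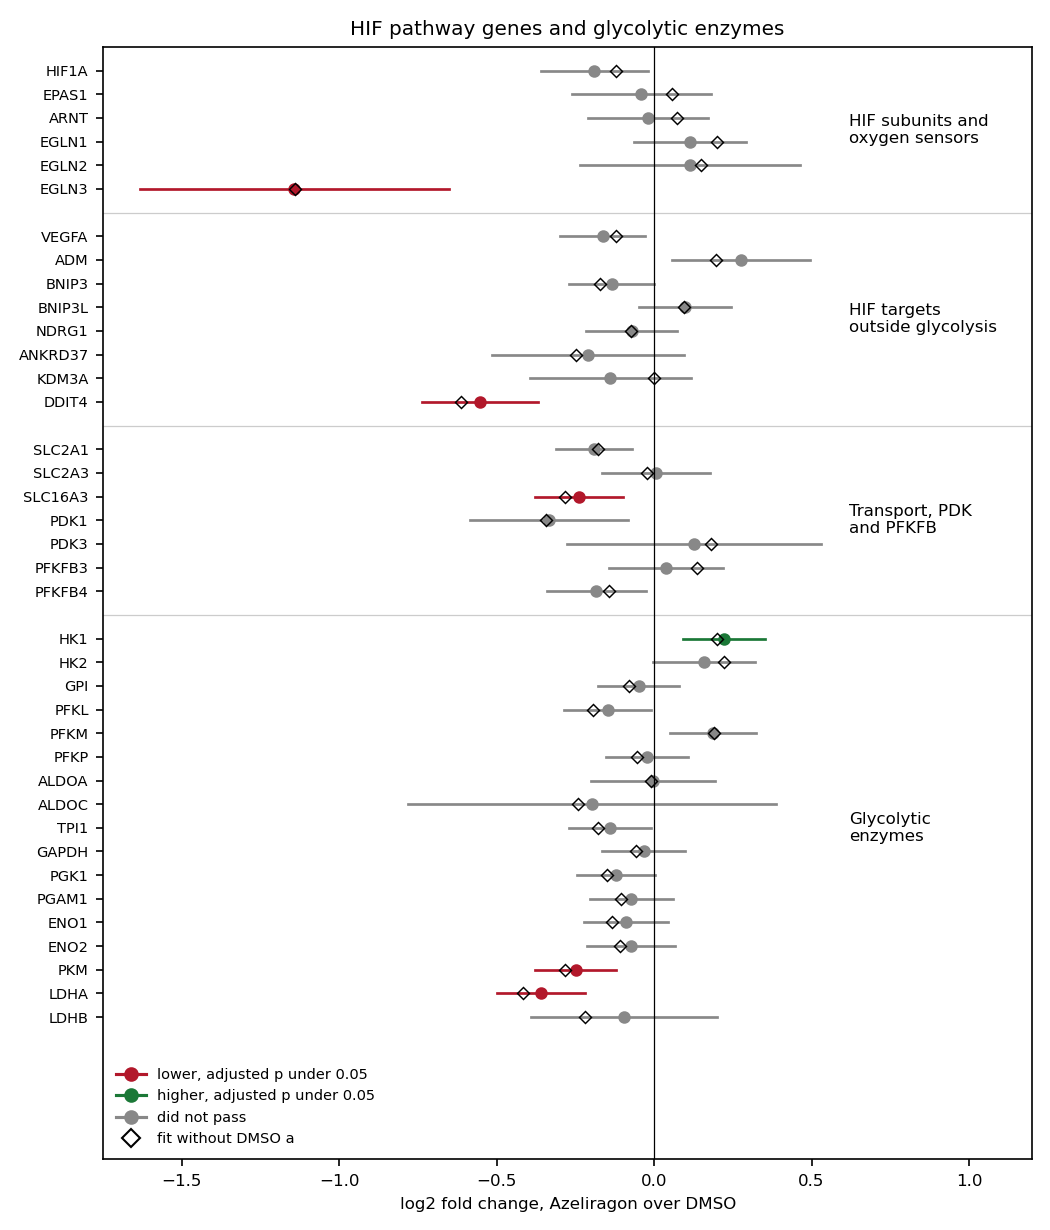
Log2 fold change of each of the 38 genes, Azeliragon over DMSO, by role. Circles with lines are the edgeR estimate and its 95% interval with all 6 libraries (n = 3 per condition), coloured by call, and open diamonds are the estimate without DMSO a. EGLN3 (-1.14) and DDIT4 (-0.55) stand farthest to the left, and 29 of the 38 circles lie within 0.2 of zero.

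The HIF core letters ACGTG and GCGTG were looked for on both strands in the 250 bases before the RefSeq gene start (GRCh38.p14), which the sequence table gave for 34 of the 38 genes. At least 1 core was found in 22 of 34 (64.7%) and in 43.2% of all 35116 promoters of the table. The former counts 1 window per gene of a set chosen by HIF role, and the latter every window of the table, so the shares are not matched. Because ACGTG is nearly its own reverse complement, CACGTG counts on both strands. Among the 5 genes that fell, LDHA and DDIT4 held cores, and EGLN3, SLC16A3 and PKM held none in this window. HK1, which rose, also held none. Only 1 start per gene was searched, and the window of PKM lies wholly inside annotated exons, so cores at other starts were not looked for. Of the 28 other genes 20 held a core. A match describes the letters only and is no measured binding site. Windows of 4 genes are shown because they span what was found: LDHA and DDIT4 fell and hold cores, PGK1 did not pass and holds 3, and EGLN3 fell and holds none. Only the stretch outside exons of GENCODE 29 is printed, 5′ to 3′ along the gene, with the cores of either strand in capitals. The stretches are chr11:18394313-18394387 (LDHA, plus strand), chr10:72273674-72273919 (DDIT4, plus), chrX:78103998-78104173 (PGK1, plus) and chr14:33951082-33951324 (EGLN3, minus).
LDHA: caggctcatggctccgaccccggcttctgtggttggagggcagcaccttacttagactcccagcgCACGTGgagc
DDIT4: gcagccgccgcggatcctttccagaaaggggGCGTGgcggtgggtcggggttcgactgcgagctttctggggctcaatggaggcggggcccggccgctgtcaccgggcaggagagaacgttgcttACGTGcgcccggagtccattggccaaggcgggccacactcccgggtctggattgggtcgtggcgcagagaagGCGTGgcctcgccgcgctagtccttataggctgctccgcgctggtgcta
PGK1: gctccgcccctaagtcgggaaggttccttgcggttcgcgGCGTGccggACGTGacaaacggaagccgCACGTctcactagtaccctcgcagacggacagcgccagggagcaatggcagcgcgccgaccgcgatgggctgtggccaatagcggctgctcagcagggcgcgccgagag
EGLN3: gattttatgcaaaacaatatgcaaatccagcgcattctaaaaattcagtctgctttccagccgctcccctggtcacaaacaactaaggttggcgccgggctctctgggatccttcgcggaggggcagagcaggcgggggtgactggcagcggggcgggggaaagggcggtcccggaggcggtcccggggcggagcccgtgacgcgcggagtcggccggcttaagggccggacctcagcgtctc
Over the whole window LDHA holds 5 matches, of which the printed stretch contains a CACGTG that counts as 2. The cores of DDIT4 begin 219 to 53 bases before the start and those of PGK1 211 to 183. Cores were thus present both in genes that fell and in genes that did not pass.

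The RNAs of the HIF subunits did not pass the threshold. HIF1A stood at 108.8, 99.4 and 90.4 CPM in DMSO a, b and c and at 86.0, 83.9 and 91.9 CPM in Azeliragon a, b and c. The groups overlapped, since Azeliragon c lay above DMSO c (-0.19 on the log2 scale, 95% interval from -0.36 to -0.02; edgeR adjusted p = 0.189). EPAS1 had a mean of 24.0 ± 2.8 CPM in DMSO and 23.4 ± 1.8 with Azeliragon, and ARNT 38.2 ± 4.1 and 37.6 ± 1.1 CPM. The 95% intervals of their log2 fold changes were -0.26 to 0.18 for EPAS1 and -0.21 to 0.17 for ARNT. Of the 2 alpha subunits HIF1A was the more abundant per length, at 85.5% ± 0.51 of their summed length-scaled counts in DMSO and 84.1% ± 0.53 with Azeliragon.

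EGLN3 fell, and the other prolyl hydroxylases did not pass. EGLN3 (PHD3) hydroxylates HIF alpha and is itself a HIF target that rises in hypoxia. It lies at chr14:33924231-34462774 (minus strand; GRCh38 and GENCODE 29, as for the other genes). The counts were 164, 193 and 119 in DMSO a, b and c and 86, 60 and 64 in Azeliragon a, b and c, or 3.63, 4.47 and 2.76 CPM against 2.00, 1.38 and 1.54 CPM. The highest Azeliragon library thus lay below the lowest DMSO library. The level was 2.21-fold lower (log2 fold change -1.14, SE 0.23; edgeR adjusted p = 0.00978), and 2.20-fold lower without DMSO a. With single libraries left out the log2 fold change lay between -1.31 and -0.96, and leaving out DMSO b, Azeliragon b or Azeliragon c ended the call (highest adjusted p in edgeR 0.0604).

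EGLN1 (PHD2), the main oxygen sensor in most cells, had 49.8 ± 5.1 CPM in DMSO and 53.9 ± 1.2 with Azeliragon. It did not pass with all libraries (log2 fold change 0.11; edgeR adjusted p = 0.479) and was higher without DMSO a (0.20; adjusted p = 0.0279 in the same test). EGLN2 (PHD1) had 9.55 ± 2.2 and 10.3 ± 1.2 CPM. EGLN3 made up 5.65% ± 1.6 of the length-scaled counts of the 3 hydroxylases in DMSO and 2.42% ± 0.44 with Azeliragon, so the gene that fell is the least abundant of the family. EGLN2 shares exons on its own strand with RAB4B-EGLN2 and AC008537.1, both at 0 CPM in both conditions. Its level and the shares of the family are therefore uncertain.

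Among HIF targets outside glycolysis, DDIT4 fell and the other 7 did not pass. DDIT4 (REDD1) restrains the growth kinase complex mTORC1 and is induced by hypoxia, by glucocorticoids and by several stresses. It lies at chr10:72273920-72276036 (plus strand). The level was 165.9, 169.5 and 207.4 CPM in DMSO a, b and c and 121.7, 121.2 and 126.9 CPM in Azeliragon a, b and c. The groups were well apart, and DMSO c was the highest library. DDIT4 was 1.47-fold lower (log2 fold change -0.55, SE 0.08; edgeR adjusted p = 0.00199) and 1.53-fold lower without DMSO a. It was the 1 gene of the 38 whose call held with each of the 6 libraries left out in turn (edgeR adjusted p up to 0.0285). The antisense gene DDIT4-AS1, which overlaps it, had 0 counts in all libraries.

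The angiogenic growth factor VEGFA was abundant and slightly lower, at 196.5, 181.9 and 180.2 CPM in DMSO and 171.0, 162.6 and 165.3 CPM with Azeliragon. The groups did not overlap, but the difference did not pass (-0.16 on the log2 scale, 95% interval from -0.30 to -0.03; edgeR adjusted p = 0.159). ADM, which encodes the vasodilator peptide adrenomedullin, averaged 31.2 ± 3.4 CPM without the drug and 37.7 ± 3.8 with it, and the groups overlapped (log2 fold change 0.27; edgeR adjusted p = 0.141). With each library's trend on transcript length and GC content removed, VEGFA (-0.23; edgeR adjusted p = 0.0206) was called lower and ADM (0.35; edgeR adjusted p = 0.0132) higher. In that setting 2 of the 38 genes rose and 8 fell, where 5.45% and 4.86% of all genes did. SLC2A1 and PDK1, described below, were among the 8.

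The mitophagy receptors BNIP3 and BNIP3L did not pass. BNIP3 had 143.4, 155.3 and 155.2 CPM in DMSO and 139.4, 136.9 and 136.9 CPM with Azeliragon, with all Azeliragon libraries lower (log2 fold change -0.14; edgeR adjusted p = 0.237 with all libraries and 0.0129 without DMSO a). BNIP3L (NIX) had 82.7 ± 4.9 and 88.5 ± 2.4 CPM (log2 fold change 0.10). BNIP3 took 59.7% ± 1.7 of the pair's length-scaled counts in DMSO and 55.7% ± 0.44 with Azeliragon, with no overlap between groups. BNIP3L shares exons on the opposite strand with PNMA2, at 47.4 ± 9.4 CPM in DMSO and 58.9 ± 2.4 with Azeliragon. The strand setting is not stated, so the count of BNIP3L and the share of BNIP3 are uncertain. NDRG1, a stress-responsive gene of the same program, differed by -0.07 on the log2 scale (95% interval -0.22 to 0.07). KDM3A, a histone demethylase, differed by -0.14 with all libraries and by 0.00 without DMSO a. ANKRD37, an ankyrin repeat protein, was lower in all Azeliragon libraries (5.50 ± 0.36 against 4.75 ± 0.61 CPM) and did not pass.

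Among genes of glucose entry, lactate exit and flux control, SLC16A3 fell and 6 did not pass. SLC16A3 encodes MCT4, the transporter that exports lactate from glycolytic cells, and lies at chr17:82228397-82261129 (plus strand). It stood at 584.9, 618.5 and 669.2 CPM in DMSO a, b and c and at 531.7, 527.1 and 527.8 CPM in Azeliragon a, b and c. The 3 Azeliragon libraries were nearly equal and all lower. The difference was 1.18-fold (log2 fold change -0.24, SE 0.06; edgeR adjusted p = 0.0465) and 1.22-fold without DMSO a. Leaving out DMSO a kept the call and leaving out any of the other 5 libraries ended it (highest adjusted p in edgeR 0.222). CSNK1D overlaps it on the opposite strand, at a mean of 148 CPM in DMSO and 139.6 with Azeliragon, so its count is uncertain.

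SLC2A1 (GLUT1), the widespread glucose importer, came close to the threshold, and passed it with the length and GC trend removed (edgeR adjusted p = 0.0459). It had 1333, 1282 and 1304 CPM in DMSO and 1126, 1148 and 1155 CPM with Azeliragon, again with no overlap (-0.19 on the log2 scale, 95% interval from -0.31 to -0.07; edgeR adjusted p = 0.0634 with all libraries and 0.00324 without DMSO a). SLC2A3 (GLUT3) averaged 26.7 ± 1.2 CPM without the drug and 26.9 ± 0.74 with it. Per length GLUT1 held 98.5% of the counts of the pair in DMSO and 98.2% with Azeliragon.

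PDK1 blocks pyruvate dehydrogenase and so keeps pyruvate out of the mitochondrion. It had 11.1, 12.5 and 10.0 CPM in DMSO and 9.26, 8.12 and 9.33 CPM with Azeliragon, all lower, and did not pass with all libraries (log2 fold change -0.33; edgeR adjusted p = 0.121, and 0.0429 without DMSO a). PDK1 did pass with all libraries once the length and GC trend was removed (edgeR adjusted p = 0.0219). PDK3 had 2.91 ± 0.21 and 3.18 ± 0.62 CPM. PFKFB3 and PFKFB4 set the level of fructose 2,6-bisphosphate, the activator of phosphofructokinase. PFKFB3 averaged 99.0 ± 12 CPM without the drug and 102 ± 1.7 with it (edgeR adjusted p = 0.848). PFKFB4 averaged 52.3 ± 2.5 and 46.0 ± 1.8 CPM, with no overlap (edgeR adjusted p = 0.17), and shares exons on its strand with UCN2, which fell (edgeR adjusted p = 0.00369). PFKFB3 made up 65.3% ± 1.8 of the pair in DMSO and 68.8% ± 1.2 with Azeliragon.

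**Figure D2:**
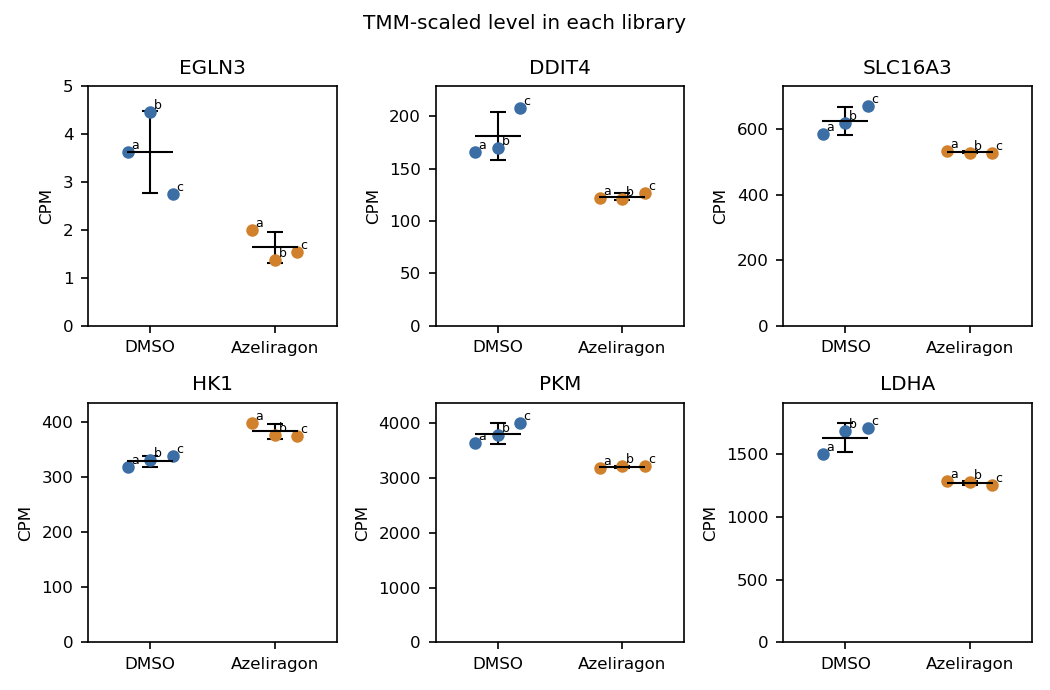
Level of the 6 called genes in each library, in TMM-scaled CPM on axes that start at 0. Points are libraries a, b and c, and bars are the mean and SD (n = 3). The groups do not overlap in any panel, and HK1 is the gene that is higher with Azeliragon (374.6 to 398.4 CPM against 317.5 to 337.8).

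Of the 17 glycolytic enzymes, HK1 rose, PKM and LDHA fell and 14 did not pass. HK1, a hexokinase that binds mitochondria and catalyses the opening step, lies at chr10:69269984-69401884 (plus strand). It stood at 317.5, 329.6 and 337.8 CPM in DMSO a, b and c and at 398.4, 375.3 and 374.6 CPM in Azeliragon a, b and c. All Azeliragon libraries were higher, by 1.17-fold (log2 fold change 0.22, SE 0.06; edgeR adjusted p = 0.0484) and by 1.15-fold without DMSO a. It was not called without DMSO b, nor without any Azeliragon library (highest adjusted p in edgeR 0.234). HK2, the hypoxia-induced hexokinase, averaged 92.4 ± 7.4 CPM without the drug and 103 ± 5.4 with it (edgeR adjusted p = 0.257 with all libraries and 0.00615 without DMSO a).

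PKM and LDHA act at the end of the pathway, where phosphoenolpyruvate becomes pyruvate and pyruvate becomes lactate. PKM, pyruvate kinase, lies at chr15:72199029-72231822 (minus strand), and its M1 and M2 splice forms share this count. It stood at 3626, 3775 and 4006 CPM in DMSO a, b and c and at 3169, 3217 and 3206 CPM in Azeliragon a, b and c. All Azeliragon libraries were lower, by 1.19-fold (log2 fold change -0.25, SE 0.06; edgeR adjusted p = 0.0254) and by 1.22-fold without DMSO a. As for SLC16A3, the call held without DMSO a but not without any of the others (highest adjusted p in edgeR 0.164).

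LDHA, the muscle-type lactate dehydrogenase subunit and a textbook HIF target, lies at chr11:18394388-18408425 (plus strand). It stood at 1500.3, 1685 and 1706 CPM in DMSO a, b and c and at 1286, 1276 and 1251 CPM in Azeliragon a, b and c. The groups were separated by more than the range of the Azeliragon libraries. LDHA was 1.28-fold lower (log2 fold change -0.36, SE 0.06; edgeR adjusted p = 0.00549), and 1.33-fold lower without DMSO a. Leaving out DMSO b or Azeliragon c ended the call (highest adjusted p in edgeR 0.0596). Its sister subunit LDHB, at 27.9 ± 4.7 CPM without the drug and 26.1 ± 4.3 with it, did not pass, and LDHA held 96.6% of the pair's length-scaled counts in DMSO and 95.9% with Azeliragon.

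None of the enzymes between these steps passed. For 10 of the 14 enzymes outside the threshold, the 95% interval of the log2 fold change lay within 0.3 of zero, a 1.23-fold difference. GAPDH, which oxidises glyceraldehyde 3-phosphate, averaged 2711 ± 84 CPM without the drug and 2648 ± 126 with it (log2 fold change -0.03, 95% interval -0.17 to 0.10). ENO1, the main enolase, differed by -0.09, PGAM1, a phosphoglycerate mutase, by -0.07, and GPI, which isomerises glucose 6-phosphate, by -0.05. The neuronal enolase ENO2 differed by -0.07, and the aldolases ALDOA and ALDOC by 0.00 and -0.20. TPI1, triose phosphate isomerase, had 953, 1014 and 1050.2 CPM in DMSO and 901, 918 and 916 CPM with Azeliragon (log2 fold change -0.14; edgeR adjusted p = 0.203). PGK1, phosphoglycerate kinase, had 1114, 1164 and 1195 CPM in DMSO and 1068, 1064 and 1059 CPM with Azeliragon (-0.12; edgeR adjusted p = 0.251). In both genes the Azeliragon libraries lay below the DMSO libraries, and both passed without DMSO a (edgeR adjusted p = 0.0036 and 0.0122).

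Phosphofructokinase, the committed step, has a liver (PFKL), a muscle (PFKM) and a platelet (PFKP) subunit. These did not pass with all libraries. PFKL had 160.7, 178.2 and 177.9 CPM in DMSO and 155.6, 156.0 and 155.1 CPM with Azeliragon, all lower. PFKM had 83.9, 80.8 and 85.3 CPM in DMSO and 97.7, 95.2 and 91.4 CPM with Azeliragon, all higher. With edgeR the adjusted p was 0.214 for PFKL and 0.114 for PFKM, and without DMSO a it was 0.00451 and 0.0156. PFKP, the most abundant, had 519.6 ± 24 CPM in DMSO and 512 ± 2.3 with Azeliragon. In length-scaled counts PFKP held 77.8% ± 0.32 in DMSO and 77.7% ± 0.30 with Azeliragon, PFKL 14.0% ± 0.46 and 12.8% ± 0.014, and PFKM 8.25% ± 0.36 and 9.51% ± 0.30.

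**Figure D3:**
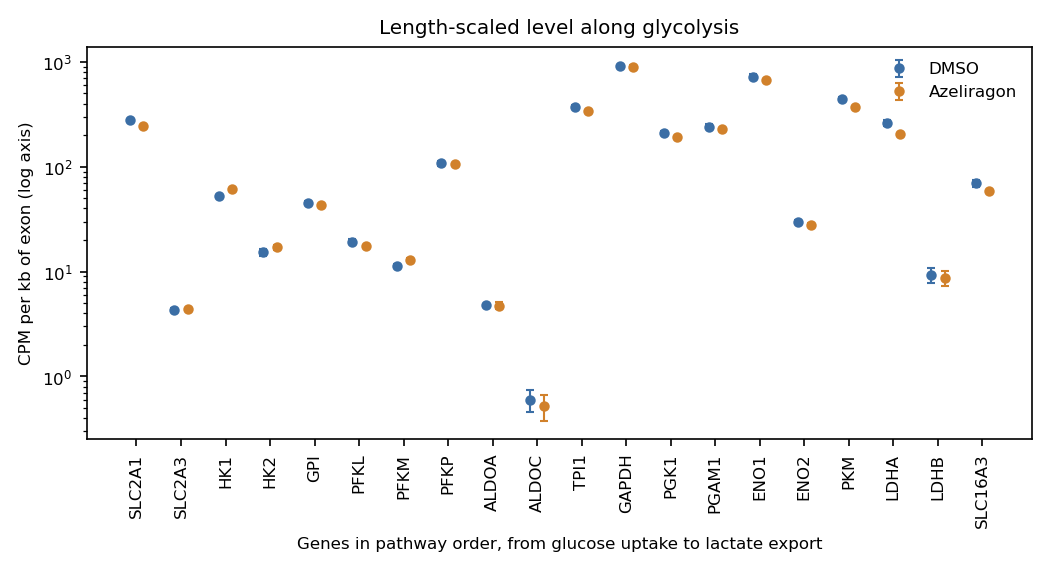
Level of transporters and enzymes in pathway order, as TMM-scaled CPM per kb of annotated exon on a log axis. Points are means and bars the SD (n = 3 per condition). GAPDH and ENO1 are at the top at 909 and 720 CPM per kb in DMSO, ALDOC at the bottom at 0.60, and differences between conditions are small beside those between genes.

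Per kb of exon the order of the enzymes in DMSO was GAPDH (909 ± 28 CPM per kb), ENO1 (720 ± 41), PKM (444 ± 22), TPI1 (372 ± 18), LDHA (263 ± 18), PGAM1 (241 ± 13), PGK1 (210.0 ± 7.5) and PFKP (107 ± 5.0). The others ran from HK1 (52.1 CPM per kb) to ALDOC (0.598). LDHA and PGAM1, neighbours in this order, differed by less than their summed SDs in DMSO. With Azeliragon their order was the reverse, at 205 ± 2.9 for LDHA and 229 ± 3.7 for PGAM1, and all others kept their place. This order rests on the length used, the sum of all annotated exons (6210 bases for LDHA and 2568 for PGAM1). In CPM, LDHA stood above PGAM1 in both conditions, at 1630 against 620 in DMSO and 1271 against 589 with Azeliragon. ALDOA, the main aldolase in most tissues, was listed at only 4.75 CPM per kb. It shares exons on its own strand with the gene AC093512.2, and no source names how reads that match both were counted, so its level and its share of the aldolases are uncertain.

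Together the 17 enzymes took 1.61%, 1.68% and 1.68% of all counts in DMSO a, b and c and 1.52%, 1.51% and 1.51% in Azeliragon a, b and c. The groups did not overlap (difference -0.142 percentage points; exact two-sided permutation p = 0.1, the smallest that 3 against 3 libraries can give). ENO1, PKM and GAPDH made up 62.2% of this sum, so abundant genes set it. The 8 HIF targets outside glycolysis summed to 0.0771% ± 0.00049 of counts in DMSO and 0.0685% ± 0.0013 with Azeliragon, and the 7 genes of transport and flux control to 0.212% ± 0.0044 and 0.186% ± 0.0011. Neither set overlapped between conditions, at the same exact permutation p of 0.1. For the 6 HIF subunits and oxygen sensors the sums overlapped, at 0.0225% ± 0.0026 and 0.0214% ± 0.00096.

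Shares within a family do not depend on how libraries are scaled. In the 11 families 15 shares were computed, and in 8 of them the 2 conditions did not overlap (HIF1A, EGLN3, BNIP3, SLC2A1 and PFKL lower, EGLN1, PFKM and PFKFB3 higher). Each of these 8 had the smallest exact permutation p that the design allows, 0.1, or 0.188 after Benjamini-Hochberg adjustment over the 15 shares, so none passes a threshold of 0.05. For EGLN1 the groups barely separated, with 79.17% in DMSO a against 79.19% in Azeliragon a. Shares within a family are not independent, since a fall of 1 raises the others, and EGLN1 and EGLN3 share a family, as do PFKL and PFKM. No shares were computed for families outside the 38 genes, so the count of 8 has no background rate. Among single genes tested, 13.2% did not overlap and were lower with Azeliragon, and 12.1% did not overlap and were higher. The shares of EGLN2, PDK1, HK1, ENO1, LDHA, PFKP and ALDOA overlapped, and that of PDK1 varied most with Azeliragon, at 48.5% ± 6.3 against 56.1% ± 2.6 in DMSO. The size of a share depends on the length used. From counts not divided by length, PDK1 held 79.3% in DMSO and 73.7% with Azeliragon. Only genes among the 38 enter these shares, so PDK2, PDK4 and other family members are not counted.

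**Figure D4:**
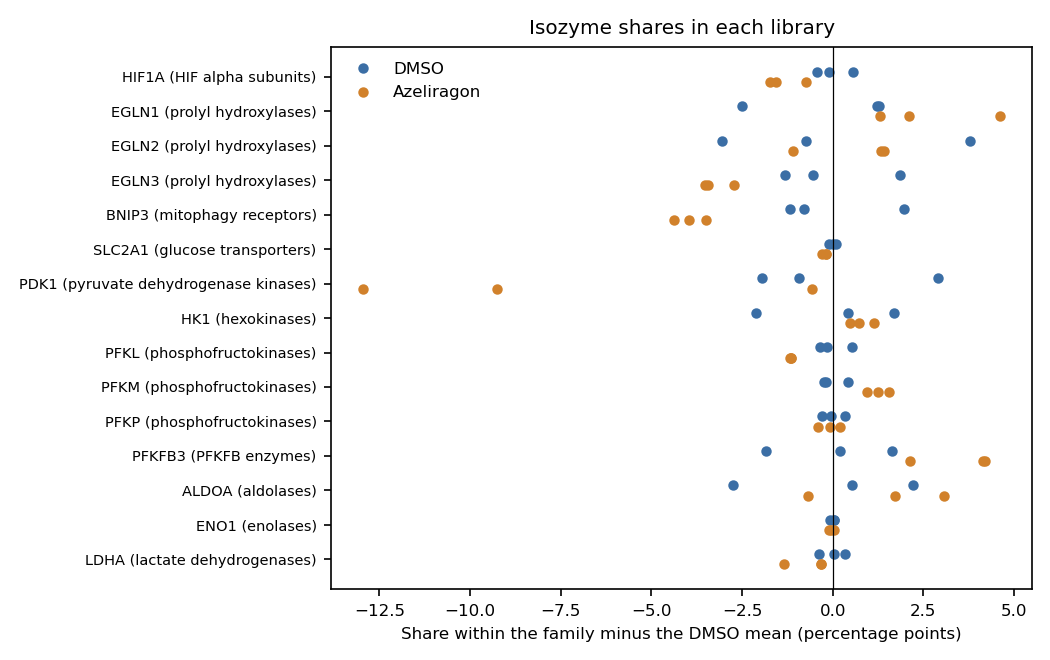
Share of each gene within its family in each library, from length-scaled counts, as the difference from the DMSO mean in percentage points. Points are the 3 libraries of each condition. EGLN3 and BNIP3 lie to the left with Azeliragon (differences of means -3.23 and -3.94 points) and PFKFB3 to the right (3.50 points), while ENO1 shows almost no difference.

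Other genes of the pathway were taken from lists drawn up by role. Of 29 other hypoxia targets that could be tested, 3 rose, 6 fell and 20 did not pass (median log2 fold change -0.04), where 2.75% of all genes rose and 3.53% fell, the shares against which the lists that follow are also read. The changes of largest size were in ANGPTL4, a secreted lipase inhibitor (9.64 ± 1.9 CPM in DMSO, 3.23 ± 0.29 with Azeliragon), in PPFIA4, a scaffold protein of the liprin family (7.15 ± 0.63 and 4.26 ± 0.57), and in BHLHE40, a transcriptional repressor (106 ± 5.4 and 70.4 ± 3.9). These 3 fell by 1.58, 0.75 and 0.60 on the log2 scale (edgeR adjusted p = 0.000115, 0.00701 and 0.000314), and TMEM45A rose by 0.46 (edgeR adjusted p = 0.0365). The calls of ANGPTL4, PPFIA4 and BHLHE40 held with each library left out in turn, whereas TMEM45A was no longer called when any library but DMSO a was left out, nor with the replicate block (edgeR adjusted p = 0.0698). MIF had at most 8 counts per library and could not be tested. It shares exons with AP000350.4 on its own strand and with MIF-AS1 on the opposite strand. How reads that match both were counted is not stated, so the level of MIF is uncertain.

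Of 12 other genes of HIF control that could be tested, CITED2 rose and 11 did not pass. CITED2 competes with HIF for the coactivators CREBBP and EP300, and averaged 151 ± 4.9 CPM without the drug and 178 ± 5.6 with it (log2 fold change 0.24; edgeR adjusted p = 0.037). Its call too ended when any library but DMSO a was left out, and with the replicate block (edgeR adjusted p = 0.0623). VHL, the ubiquitin ligase subunit that recognises hydroxylated HIF alpha, differed by -0.06 (95% interval -0.21 to 0.09), and HIF1AN, the asparaginyl hydroxylase, by 0.08. Of 8 other glycolytic isozymes 0 passed in edgeR with all libraries, where 4 had an unadjusted p under 0.05, against 20.4% of all genes. None passed in limma, 2 were higher in DESeq2, and 1 was higher in edgeR with the replicate block and 1 with the length and GC trend removed. The smallest p was that of FBP1, a gluconeogenic phosphatase (log2 fold change 0.27; edgeR adjusted p = 0.0755). Of 13 genes that handle pyruvate and lactate 0 passed in edgeR with all libraries, where 5 had an unadjusted p under 0.05, and 0 passed in limma. In DESeq2 1 was lower, and in edgeR with the length and GC trend removed 1 was higher and 1 lower. MPC2, a subunit of the mitochondrial pyruvate carrier, had the smallest p (-0.32; edgeR adjusted p = 0.0888). SLC16A1 (MCT1), another lactate transporter, had at most 14 counts per library. Of 13 genes of the pentose phosphate path and glycogen, PYGL, a glycogen phosphorylase, rose (0.24; edgeR adjusted p = 0.0414) and 12 did not pass. PYGL was not called without DMSO b, without any Azeliragon library or with the replicate block (edgeR adjusted p = 0.0729). In this last list other settings called more genes lower: 3 in DESeq2, 2 with the replicate block and 2 with library totals. Without DMSO a, where 12.9% of all genes were called higher and 10.8% lower, the counts of higher and lower genes were 5 and 8 for the hypoxia targets, 4 and 2 for HIF control, 3 and 0 for the isozymes, 4 and 2 for pyruvate and lactate, and 1 and 5 for the pentose phosphate path and glycogen.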

How the data were processed

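The values the authors deposited are whole-number counts of reads for each gene in 6 libraries. Per the submitters' processing notes the tools were STAR 2.6.1d, featureCounts 1.5.0-p3 and limma, on GRCh38. Neither the roles of these tools, the annotation, the strand setting nor the handling of multiply matching reads is stated there. Of the 38 genes, 16 share exons with a gene on the opposite strand, 10 with one on the same strand, and 15 have pseudogenes named after them in GENCODE 29 (62 for GAPDH), so their counts are uncertain to an unknown extent.

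The whole table was fitted in edgeR 4.0.16 (R 4.3.3) by its quasi-likelihood test after filterByExpr and TMM scaling, on treatment alone, and the script was checked on simulated counts. Length is the summed exon length in GENCODE 29. Within-condition library pairs differed by more than sampling noise (chi-square per degree of freedom at least 4.60). Exact permutation tests used SciPy 1.17.1, and DESeq2 1.42.0 and limma 3.58.1 were alternatives. The replicate letters were not treated as pairs, since same-lettered libraries did not deviate together (correlations -0.04 to 0.03). Intervals cover the spread between libraries only. The members, the lists and the rule for naming other genes (from each list up to 4 called genes by size of change, or the gene with the smallest p) were chosen with earlier results of these data known. VHL, HIF1AN, MIF and SLC16A1 were named beside that rule.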

Additional observations from a re-analysis of the deposited data

How the results depend on the processing

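The count of all genes called was 1009. It was 1685 with no filter on low counts, 1658 with the length and GC trend removed, 3955 with that trend removed and DMSO a left out (a setting added after seeing the data), and between 445 and 3916 with single libraries left out. Of the 38 genes, 1 rose with all libraries. The number that rose was 0 with RLE size factors, 2 with no filter, 2 with the trend removed, 3 with the trend removed and without DMSO a, and 0 to 4 with single libraries left out. The number that fell was 5, against 8 with the trend removed, 14 with the trend removed and without DMSO a, and 1 to 12 with single libraries left out. It was 1 without DMSO b or Azeliragon c, 2 without Azeliragon b, and 3 without DMSO c or Azeliragon a. With the replicate block, 0 of the 38 genes rose and 4 fell, and 908 of all genes were called. SLC16A3 (edgeR adjusted p = 0.0678 with the block) and HK1 (0.0876) lost their calls there and with RLE size factors, and DESeq2 added SLC2A1. The cause was not tested. None of the 6 called genes changed direction in any setting. The median log2 fold change of the 38 genes lay between -0.13 and -0.06 in all settings. With all 6 libraries and the settings of the report, the smallest difference called among the 38 genes was 1.17-fold. Among the other genes named, the replicate block also ended the calls of CITED2, TMEM45A, PYGL and P4HA1.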

Other observations

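Several hypoxia targets outside the 38 genes act on collagen. P4HA1 and P4HA2, subunits of the prolyl 4-hydroxylase that stabilises collagen, and PLOD1, a lysyl hydroxylase, were named here after their values were seen. P4HA1 fell from 32.5 ± 0.96 to 26.1 ± 2.0 CPM, P4HA2 from 50.5 ± 2.0 to 39.9 ± 2.6 and PLOD1 from 116 ± 6.2 to 91.5 ± 3.9 (mean ± SD; edgeR adjusted p = 0.0442, 0.0193 and 0.00942). PLOD2, the lysyl hydroxylase most often studied in hypoxia, did not pass (log2 fold change -0.17; edgeR adjusted p = 0.351). LOX, which crosslinks collagen, was higher in all 3 Azeliragon libraries without passing (0.20; edgeR adjusted p = 0.178). The secreted target IGFBP3, a binding protein of insulin-like growth factors, rose by 0.31 on the log2 scale (edgeR adjusted p = 0.00906). Leaving out DMSO b or any Azeliragon library ended the calls of P4HA1 and P4HA2, and P4HA1 was not called with the replicate block (edgeR adjusted p = 0.0575). PLOD1 lost its call without Azeliragon a or c, and IGFBP3 without DMSO b, Azeliragon b or Azeliragon c.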
